A study of Mus musculus with 6 samples.

Results

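Polycomb, SWI/SNF and NuRD are the main complexes that modify or remodel chromatin during the exit from pluripotency, and their subunit genes were followed here in mouse embryoid bodies that carried retinoic acid (RA). The members were a list of 51 subunit genes, chosen with earlier results of these data known and found on the array by gene symbol. All 51 had a probe set named for them alone, 125 probe sets of the 45101 on the array, and 48 of the 51 passed a filter on signal, among 13608 genes that did and 18193 with a probe set of their own. The study has 6 arrays, 3 for each of 2 groups, and all came from D3 embryonic stem cells that had formed bodies without LIF in rotary culture and were taken at 10 days. Bodies of both groups held microspheres coated with gelatin. In the 3 control samples the microspheres carried CellTracker Red, a fluorescent dye, and in the 3 RA samples they carried retinoic acid, a vitamin A derivative that binds nuclear receptors. D3 is a single cell line, and the labels give no RA dose and do not say which microsphere ratio or rotary speed each sample had. The labels speak of triplicates but do not state separate cultures, and the p-values therefore reflect only how far these 3 samples per group scatter, which could be technical scatter. Each array read whole bodies, in which fewer cells of a type and less RNA per cell cannot be told apart.

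Polycomb repressive complex PRC2 methylates histone H3 and PRC1 ubiquitinates histone H2A, and together they keep developmental genes silent. PRC1 comes in forms that differ in their PCGF subunit, and its canonical forms also hold a CBX protein, which reads the PRC2 mark, and a PHC protein, which makes the complex polymerize. SWI/SNF complexes slide or evict nucleosomes with an ATPase, and NuRD joins a remodelling ATPase with histone deacetylases. In all of them, paralogous subunits take each other's place as cells differentiate. Cbx7 is the main CBX gene of embryonic stem cells, and Smarcd3 is the Smarcd gene of the heart. In neurons Actl6a is replaced by Actl6b, and Dpf1 is a neuronal paralog of Dpf2.

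The values below are log2(intensity + 16) after quantile normalization, called log2 levels, and differences are RA minus control with the standard error (SE) of a limma fit over all 13608 genes. The threshold was a Benjamini-Hochberg adjusted p of 0.05. Median raw intensity was 41.4 to 63.7 on control arrays and 61.7 to 65.5 on RA arrays. Normalized arrays of the same group correlated at 0.959 to 0.971, and those of different groups at 0.879 to 0.901. RA array 1 stood apart in RNA quality, with a Gapdh 3-prime to 5-prime ratio of 34.0 against 3.06 to 4.74 on the other 5 arrays. The same ratio for actin was 3.35 to 4.24 on control arrays and 4.35 to 7.42 on RA arrays. By actin every RA array thus lay above every control array, and the part of RNA quality in the differences below was not tested. The groups differed in their cell type markers as well. All 12 of 12 epiblast and pluripotency markers were higher with RA, their summed level rising from 3709 to 4020 on control arrays to 20799 to 21242 on RA arrays, and 8 of 10 heart muscle markers were lower, with sums of 12908 to 19527 and 729 to 814. The RA means of Myh6, Ryr2, Tnni1 and Tnnt2 lay below the filter level of 5.74. All 8 mesenchyme, all 5 endothelium and 5 of 7 blood markers measured were lower, visceral endoderm markers were split with 3 higher and 5 lower, and 3 of 5 neural progenitor markers were higher. Of 11 measured proliferation markers 7 were higher and 0 lower, with sums of 18521 to 20154 on control arrays and 25223 to 25383 on RA arrays.

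Members changed in both directions and mostly by small amounts. Of the 48 measured members 13 rose and 7 fell, or 41.7%, where 30.0% of all genes tested were called. The members' median difference was 0.04 and that of all genes 0.01 on the log2 scale. Members were called higher in 27.1% of cases, against 14.3% of all genes, and lower in 14.6%, against 15.6%. Since the list was chosen with earlier results of these data known, such shares describe the list and do not test it. Changes of at least 1.5-fold were found in 4 members that rose, where 8.19% of all genes did so, and in 3 that fell, where 10.6% did. Together these were 14.6% of members against 18.8% of all genes, and 13 of the 20 calls were smaller than 1.5-fold. Control and RA arrays were fully separated in 26 members, 54.2%, where this held for 44.0% of all genes. Polycomb genes accounted for 8 of the 13 rises, or 40% of their 20 measured members, and 1 Polycomb gene fell. SWI/SNF genes accounted for 5 of the 7 falls, or 27.8% of their 18 measured members, and 3 SWI/SNF genes rose. Of these, 3 Polycomb rises and 1 SWI/SNF fall reached 1.5-fold. The calls ran from adjusted p = 2.01e-05 to 0.0437, and the 28 members that did not pass differed by at most 0.64 in size. The plot of all measured members by complex shows this spread.

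**Figure D1:**
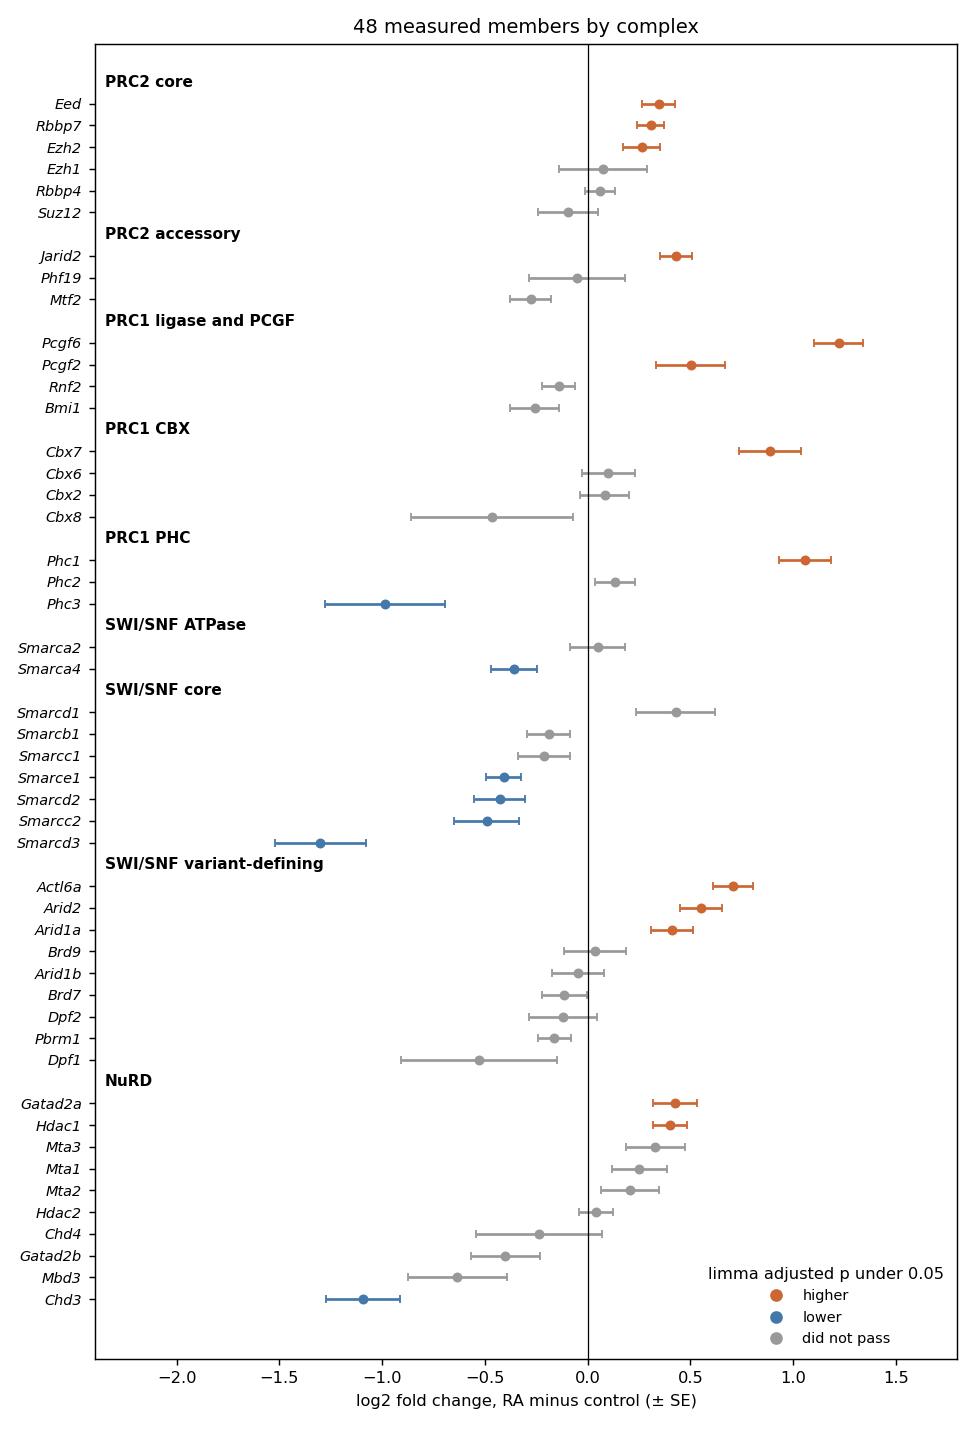
Difference in log2 level (RA minus control, horizontal axis) of the 48 measured members, grouped by complex; points are estimates, bars are ± SE from 3 against 3 arrays, and colour gives the call. Pcgf6 and Phc1 lie farthest to the right at 1.22 and 1.06, and Smarcd3 and Chd3 farthest to the left at -1.30 and -1.10.

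PRC2 core genes rose by small amounts or did not pass. Eed, which binds the methyl mark and stimulates the enzyme, lay at 9.98, 9.92 and 9.92 on control arrays 1 to 3 and at 10.24, 10.26 and 10.36 on the RA arrays. The groups did not overlap, and the difference was 0.35 ± 0.08 (adjusted p = 0.00662). Rbbp7, a histone-binding subunit that PRC2 shares with NuRD, rose by 0.31 ± 0.06 (adjusted p = 0.00379), although only the brighter of its 2 probe sets passed when all probe sets were tested. That probe set has the suffix x, which marks probes that may read related transcripts. Ezh2, the methyltransferase of dividing cells, rose by 0.26 ± 0.09 (adjusted p = 0.0437). Its arrays lay at 10.34, 10.22 and 10.13 in controls and at 10.41, 10.46 and 10.60 with RA, a narrow gap. The call of Ezh2 was lost under 10 of 19 other settings, including those that dropped control 2, control 3, RA 2 or RA 3 (0.21 to 0.28). Ezh1, the paralog of resting cells, differed by 0.08 ± 0.21, Suz12, the scaffold, by -0.10 ± 0.15, and Rbbp4, the paralog of Rbbp7, by 0.06 ± 0.07, and none of these passed. For Suz12 the other kept probe sets all lay above 0, at 0.11 to 0.50, without passing. No measured PRC2 core gene fell, and 7 of 11 measured proliferation markers, led by Mcm2 (1.93 times higher) and Ccna2 (1.70 times), rose on the same arrays; their part in the PRC2 rises was not tested.

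Among the accessory subunits that steer PRC2 to its targets, only Jarid2 passed. Jarid2 lay at 10.24, 10.20 and 10.13 on control arrays and at 10.58, 10.69 and 10.60 on RA arrays. The 2 groups were well apart for the size of the change, 0.43 ± 0.08 (adjusted p = 0.00145). All 3 of its probe sets were higher, by 0.43 to 0.63, and the call held under all 19 other settings. Mtf2, a DNA-binding partner of the enzyme, differed by -0.28 ± 0.10 and just missed the threshold (adjusted p = 0.0518). It passed under 5 of the 19 other settings, while 1 of its 4 kept probe sets lay above 0 (0.18). Phf19, its paralog, differed by -0.05 ± 0.23.

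The largest rise of all members was in PRC1, in the subunit that defines one of its non-canonical forms. Pcgf6, whose form of PRC1 silences germline genes in embryonic stem cells, lay at 8.38, 8.06 and 8.04 on control arrays and at 9.34, 9.36 and 9.45 on RA arrays. Every RA array was above every control, and the level was 2.33 times higher (1.22 ± 0.12, adjusted p = 2.01e-05). Of its 3 kept probe sets 2 passed as higher, and the dimmest, with a control mean of 5.67, differed by 0.39 ± 0.27. Taking that dim probe set was the only setting under which the call was lost. Among PCGF genes outside the member list, which define further non-canonical forms, Pcgf5 rose by 0.72 ± 0.14 (adjusted p = 0.00207) and Pcgf3 fell by 0.45 on the log2 scale (adjusted p = 0.0106). The PCGF genes of canonical PRC1 are Pcgf2 and Bmi1. Pcgf2 rose by 0.50 ± 0.17 (adjusted p = 0.0405), with 7.89, 7.45 and 7.82 on control arrays and 8.46, 8.16 and 8.04 on RA arrays. This call was lost under 12 of 19 settings, including those that dropped control 2, control 3, RA 1 or RA 2 (0.37 to 0.56). Bmi1, its close paralog, differed by -0.26 ± 0.12 in the brighter probe set and did not pass (adjusted p = 0.130). The second Bmi1 measurement, from the dimmer probe set, was 8.10, 8.14 and 8.16 in controls and 7.56, 7.35 and 7.35 with RA, and it fell by 0.71 on the log2 scale in the fit over probe sets, where 11.1% of 27022 were lower (adjusted p = 0.00410). Rnf2, the catalytic subunit, differed by -0.14 ± 0.08 and did not pass, and Ring1 and Pcgf1 stayed below the signal filter, with group means between 5.28 and 5.53.

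Of the CBX genes Cbx7 alone passed. It lay at 7.55, 7.43 and 7.24 on control arrays and at 8.16, 8.45 and 8.28 on RA arrays. The groups were apart by more than either group's own range, and the level was 1.85 times higher (0.89 ± 0.15, adjusted p = 0.000926). The call held under all 19 other settings, though the second kept probe set of Cbx7, at 7.73, 6.72 and 6.48 on RA arrays, did not pass (0.33 ± 0.30). Cbx2 and Cbx8, which are known to gain on Cbx7 as stem cells differentiate, and Cbx6 did not pass. Cbx2, Cbx6 and Cbx8 differed by 0.08 ± 0.12, 0.10 ± 0.13 and -0.47 ± 0.40. The spread of Cbx8 came from 1 array: it lay at 7.06, 6.86 and 7.04 on control arrays and at 7.24, 6.93 and 5.38 on RA arrays.

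The PHC genes moved apart. Phc1, the PHC gene of embryonic stem cells, lay at 9.56, 9.60 and 9.09 on control arrays and at 10.45, 10.54 and 10.42 on RA arrays. No array overlapped, and the level was 2.08 times higher (1.06 ± 0.13, adjusted p = 8.07e-05), under all 19 other settings as well. Phc3 lay at 7.06, 7.62 and 8.05 on control arrays and at 6.53, 7.09 and 6.16 on RA arrays. Its groups overlapped, since RA array 2 was above control array 1, and it fell by 0.99 on the log2 scale with an SE of 0.29 (adjusted p = 0.0238). The call was lost under 7 of 19 settings, including those that dropped control 2, control 3, RA 1 or RA 3 (-0.97 to -0.76). Phc2, which is expressed broadly, differed by 0.13 ± 0.10 and did not pass.

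**Figure D2:**
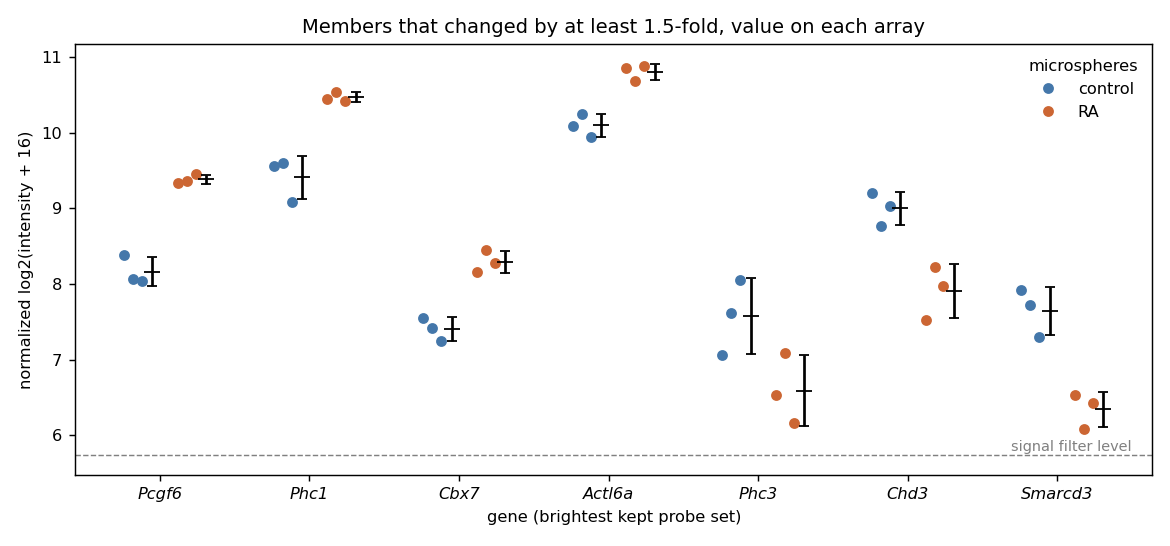
Normalized log2 level (vertical axis) of the 7 members that changed by at least 1.5-fold, on each control array (blue) and RA array (orange); black marks are mean ± SD with n = 3, and the dashed line is the filter level of 5.74. The groups are apart for all of them but Phc3, where RA array 2 at 7.09 lies above control array 1 at 7.06.

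The promoters of Pcgf6, Phc1, Phc3 and Smarcd3 are shown because Phc1, Phc3 and Smarcd3 belong to the pairs that shifted most and Pcgf6 had the largest rise. Chd3, which fell by 1.10 on the log2 scale, is not among the entries used. Each is the 250 bases before the gene's start, from RefSeq on build GRCm38.p6, 5′ to 3′ on the gene's strand. RefSeq entries were found for 44 of the 51 members. They were searched on both strands for AGGTCA, the half-site of retinoid receptors, for its repeat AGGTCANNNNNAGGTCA, which contains it, for the E2F motif TTTNNCGC and for the E-box CACGTG, and matches are in capitals.
Pcgf6, chr19:47050907-47051156, minus strand: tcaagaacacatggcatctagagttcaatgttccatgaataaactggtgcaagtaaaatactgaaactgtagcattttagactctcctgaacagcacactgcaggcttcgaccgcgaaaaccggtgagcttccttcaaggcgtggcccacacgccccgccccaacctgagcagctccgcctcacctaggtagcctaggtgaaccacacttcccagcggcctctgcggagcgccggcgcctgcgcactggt
Phc1, chr6:122340228-122340477, minus strand: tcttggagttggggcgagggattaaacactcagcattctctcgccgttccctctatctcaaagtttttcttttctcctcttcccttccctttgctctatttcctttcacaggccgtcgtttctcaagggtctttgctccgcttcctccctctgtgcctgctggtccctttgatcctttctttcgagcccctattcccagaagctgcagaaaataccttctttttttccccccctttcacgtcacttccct
Phc3, chr3:30969416-30969665, minus strand: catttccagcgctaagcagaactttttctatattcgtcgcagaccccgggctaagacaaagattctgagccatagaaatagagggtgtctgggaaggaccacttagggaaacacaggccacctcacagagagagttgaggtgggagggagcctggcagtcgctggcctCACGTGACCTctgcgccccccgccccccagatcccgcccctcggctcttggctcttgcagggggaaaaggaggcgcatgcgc
Smarcd3, chr5:24602003-24602252, minus strand: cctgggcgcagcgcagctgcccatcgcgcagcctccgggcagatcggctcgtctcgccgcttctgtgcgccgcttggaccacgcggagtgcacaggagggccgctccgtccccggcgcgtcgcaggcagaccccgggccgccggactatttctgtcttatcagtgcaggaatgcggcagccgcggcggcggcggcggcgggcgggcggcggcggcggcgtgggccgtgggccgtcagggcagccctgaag
Of these 4 windows only that of Phc3 held a match, an E-box that runs into a half-site on the other strand. Among 32851 promoters of this length, 14.0% held the half-site, 6.02% the E-box and 4.28% the E2F motif, and 3 held the repeat. Among 53 promoters of members, 4 held the half-site, 8 the E-box, 5 the E2F motif and 0 the repeat. The windows differed in CpG content, with 8 CpG in Phc1, 12 in Phc3, 14 in Pcgf6 and 38 in Smarcd3, where the median was 22 over member promoters and 6 over all promoters.

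In SWI/SNF 4 of 7 core genes were lower and 3 did not pass. Of 9 measured subunits that define its forms 3 rose and 6 did not pass, and the median of the 9 was -0.05. Smarcd3, the Smarcd gene of heart muscle, had the largest fall of all members. It lay at 7.93, 7.72 and 7.30 on control arrays and at 6.53, 6.08 and 6.42 on RA arrays, so that all RA arrays were below all controls. The level was 2.46 times lower (-1.30 ± 0.22, adjusted p = 0.00103), and -1.62 to -1.14 without 1 or 2 arrays. Heart muscle markers fell on the same arrays by widely different amounts, among them Actc1 and Myl7 at 69.2 and 33.2 times lower and Myh7 at 2.02 times lower, and their part in the fall of Smarcd3 was not tested. Smarcd1, the paralog of embryonic stem cells, differed by 0.43 ± 0.19 and did not pass (adjusted p = 0.123). It lay at 7.57, 7.12 and 7.03 on control arrays and at 7.46, 7.67 and 7.88 on RA arrays, which overlap through control array 1. Smarcd2, known from blood, fell by 0.43 on the log2 scale (adjusted p = 0.0215), but 1 of its 3 probe sets differed by 0.40 the other way and the call was lost under 10 of 19 settings, including those that dropped control 2, control 3, RA 2 or RA 3 (-0.43 to -0.31).

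The remaining falls in the core and the ATPase were at most 0.49 in size on the log2 scale. Without scaling, all genes together had a median of 0.26 in place of 0.01, so values are also given relative to that median. Smarce1, a DNA-binding subunit, lay at 10.54, 10.74 and 10.75 on control arrays and at 10.23, 10.35 and 10.23 on RA arrays. It fell by 0.41 on the log2 scale (adjusted p = 0.00374) and held without any 1 array, but with no scaling it was at -0.023 and did not pass. Relative to the median of all genes Smarce1 was at -0.42 with quantile scaling and at -0.28 without scaling. Smarcc2, the paralog of Smarcc1, fell by 0.49 (adjusted p = 0.0347). Its call was lost under 9 of 19 settings, including those that dropped control 1, control 3, RA 2 or RA 3 (-0.51 to -0.41). Relative to the same median Smarcc2 was at -0.50 with scaling and at -0.55 without. Smarca4, the ATPase of stem cell SWI/SNF, fell by 0.36 (adjusted p = 0.0294), lost its call when control 1, RA 1 or RA 3 was dropped (-0.34 to -0.25), and turned to 0.026 with no scaling. Its value relative to the median was -0.37 with scaling and -0.23 without. Smarca2, the alternative ATPase, differed by 0.05 ± 0.14, and Smarcb1 and Smarcc1 by -0.19 ± 0.10 and -0.21 ± 0.13, none of them past the threshold. The direction of Smarcb1 and Smarcc1 depended on the probe set. Dimmer kept probe sets of Smarcb1 (0.33 and 0.33) and of Smarcc1 (0.75 and 0.33) lay above 0 without passing.

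Actl6a, the actin-related subunit of progenitors and stem cells, rose most in SWI/SNF. It lay at 10.09, 10.25 and 9.95 on control arrays and at 10.86, 10.68 and 10.88 on RA arrays. The gap between the groups exceeded the range within either, and the level was 1.63 times higher (0.71 ± 0.10, adjusted p = 0.000213), under all 19 other settings too. A second probe set without the x suffix of the first gave 0.70 ± 0.11, while the dimmest of its 3 kept probe sets did not pass (0.07 ± 0.20). Its neuronal replacement Actl6b stayed below the filter, at 4.62 to 4.66 on control arrays and 4.65 to 5.44 on RA arrays, while 2 of 6 measured neuron markers, Stmn2 and Nefl, were higher with RA. Dpf1, the neuronal paralog of Dpf2, lay at 6.16 to 7.18 on control arrays and 5.26 to 6.50 on RA arrays and did not pass. Dpf2 differed by -0.12 ± 0.17.

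The large ARID subunits, which separate the BAF and PBAF forms of SWI/SNF, moved upward where they passed. Arid2, of the PBAF form, lay at 9.51, 9.52 and 9.80 on control arrays and at 10.28, 10.10 and 10.12 on RA arrays. The groups did not overlap, the difference was 0.55 ± 0.10 (adjusted p = 0.00173), and all 4 of its probe sets were higher, by 0.55 to 1.69. Arid1a, of the BAF form in stem cells, rose by 0.41 ± 0.10 (adjusted p = 0.00978), with RA arrays at 10.47 to 10.50 and control arrays at 9.93 to 10.30, and its paralog Arid1b differed by -0.05 ± 0.13. Pbrm1 and Brd7, which also mark PBAF, differed by -0.16 ± 0.08 and -0.11 ± 0.11, and Brd9, of the non-canonical form, by 0.03 ± 0.15. None of these 3 passed, nor did Phf10, a further PBAF-specific gene from the fixed lists (0.26 ± 0.10, adjusted p = 0.0710).

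In NuRD 1 ATPase gene fell, 1 deacetylase gene and 1 zinc-finger gene rose, and the other 7 members did not pass. The share called, 30% of 10 members, was the same as the 30.0% of all genes tested. At 1.5-fold or more it was 10%, against 18.8% of all genes. Chd3, one of its remodelling ATPases, lay at 9.20, 8.77 and 9.03 on control arrays and at 7.52, 8.22 and 7.98 on RA arrays. All RA arrays were below all controls, with RA array 1 lowest, and the level was 2.14 times lower (-1.10 ± 0.18, adjusted p = 0.000784). Without RA array 1 the difference was -0.90 (adjusted p = 0.00163). Chd4, the main ATPase of NuRD in stem cells, differed by -0.24 ± 0.31 and had the largest SE of the complex, with 8.98, 8.41 and 7.97 on control arrays and 7.49, 8.78 and 8.39 on RA arrays. Its other kept probe sets differed by 0.71 and -0.05 without passing, so the direction of Chd4 depended on the probe set. Mbd3, which is required for NuRD assembly in stem cells, lay at 8.13, 7.90 and 8.37 on control arrays and at 6.88, 7.77 and 7.84 on RA arrays. It differed by -0.64 ± 0.24 (adjusted p = 0.0683), and by -0.33 without RA array 1, the array with the high Gapdh ratio.

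The deacetylase Hdac1 lay at 10.74, 10.81 and 10.72 on control arrays and at 11.13, 11.05 and 11.29 on RA arrays. It rose by 0.40 ± 0.08 (adjusted p = 0.00319), with no overlap and under all 19 other settings, while its paralog Hdac2 differed by 0.04 ± 0.08. Gatad2a, a zinc-finger subunit that bridges the deacetylase and remodelling parts, rose by 0.42 ± 0.11 (adjusted p = 0.0102), from 10.10 to 10.23 on control arrays to 10.34 to 10.71 on RA arrays. Of its 5 probe sets 2 were higher and the other 3 differed by between -0.31 and 0.03 without passing, and with the probe sets averaged the difference was 0.10. The call was also lost when RA 3 was dropped (0.37). Gatad2b differed by -0.40 ± 0.17 (adjusted p = 0.0970). The MTA scaffold genes Mta1, Mta2 and Mta3 differed by 0.25 ± 0.13, 0.20 ± 0.14 and 0.33 ± 0.14, and none passed.

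Chromosome 11 carried 3 of the 7 members that fell, Chd3, Smarcd2 and Smarce1. Its 1116 measured genes had a median difference of -0.20, against 0.03 on all other chromosomes, and 28.7% of them were lower, against 14.5% elsewhere. Of the 8 members on it, 3 fell and 1 rose (Pcgf2), and the other 4 (Ezh1, Suz12, Cbx2 and Cbx8) did not pass. The differences of Smarcd2 and Smarce1 were -0.43 and -0.41, and that of Chd3 was -1.10. Off chromosome 11, 4 of 40 members fell and 12 rose. The part of the chromosome in these falls was not tested.

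Probe sets of 1 gene were often uneven. Of the 106 kept probe sets of members, 19 were higher and 8 lower, 25.5%, where 22.4% of all 27022 kept probe sets were called. In 12 of the 20 called members more than 1 probe set was kept, and in 10 of these all lay on the same side of 0. The exceptions were Smarcd2 and Gatad2a, and no member had probe sets called in opposite directions. Phc1, Phc3, Smarcd3, Chd3, Hdac1, Eed, Ezh2 and Smarcc2 rest on 1 kept probe set each. In the fit over probe sets Ezh2 and Pcgf2 did not pass.

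**Figure D3:**
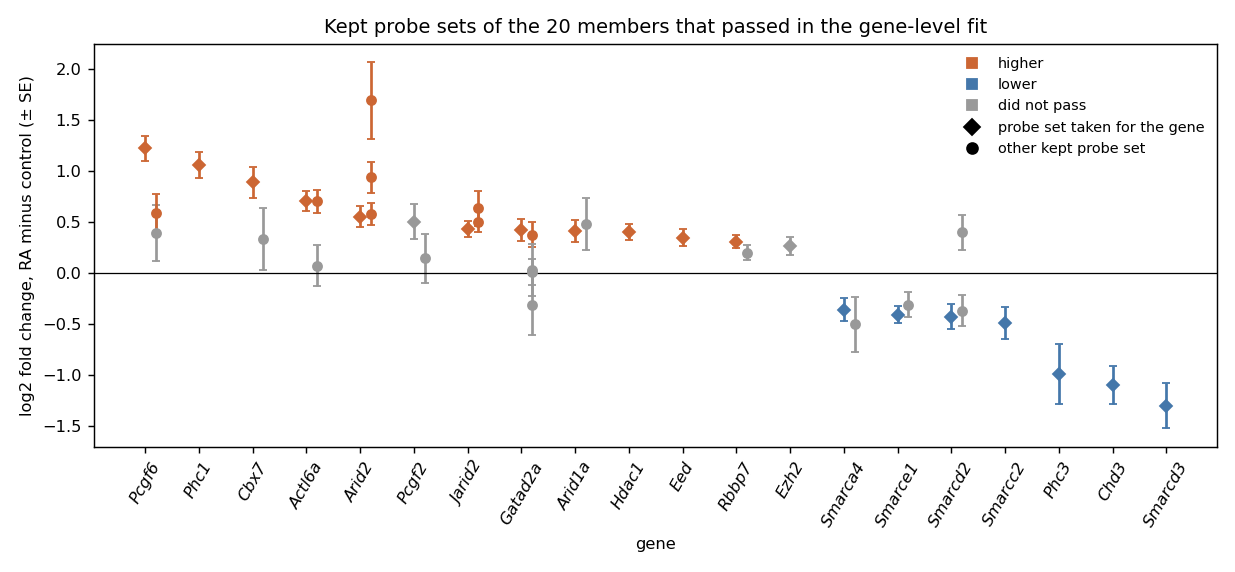
Difference in log2 level (RA minus control, ± SE, vertical axis) for each kept probe set of the 20 called members; diamonds are the probe set taken for the gene, circles are others, and colour gives the call in the fit over all kept probe sets. All 4 probe sets of Arid2 and all 3 of Jarid2 are higher, while those of Gatad2a range from -0.31 to 0.42.

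To look for subunit switches, the log2 difference between alternative subunits was taken within each array and compared between groups. Levels of different probe sets cannot be compared, but a change in this difference shows unequal change. Of 24 pairs, also chosen with earlier results of these data known, 22 were measured. Groups did not overlap in 44.0% of all single genes tested, and no such share was computed for other gene pairs. A count of separated pairs therefore cannot show that these complexes switched more than other genes. In 13 of the 22 pairs every RA array lay on one side of every control array. Each of these reached p = 0.1 in an exact two-sided permutation test, the smallest that 3 against 3 arrays allow, and p = 0.169 after adjustment over the 22 pairs, so no pair could pass. Only Phc1 and Phc3 had calls in opposite directions, and their difference shifted by 2.04 toward Phc1. The difference between Smarcd1 and Smarcd3 shifted by 1.73 toward Smarcd1, through the fall of Smarcd3 and a gain of Smarcd1 that did not pass. That between Cbx7 and Cbx8 shifted by 1.35 toward Cbx7, and by 0.79 without RA array 3, on which Cbx8 was low. These 3 pairs were the only ones measured that did not overlap and shifted by at least 1.

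Several pairs shifted by less than this with no overlap between groups. Phc1 gained 0.93 on Phc2, and Cbx7 gained 0.81 on Cbx2 (0.53 with averaged probe sets) and 0.79 on Cbx6. Chd4 gained 0.86 on Chd3 (1.81 with the least variable probe set) and Gatad2a 0.82 on Gatad2b, although the latter shift was 0.10, with overlap, when the probe sets of a gene were averaged. Pcgf2 gained on Bmi1, whose difference over Pcgf2 changed by -0.76. Hdac1 over Hdac2 changed by 0.36. Smarca4 over Smarca2 changed by -0.41, but its groups overlapped with no scaling or median centring (-0.23), with trimmed mean scaling (-0.25) and with averaged probe sets (-0.55). Mtf2 over Phf19 changed by -0.23 and Rbbp4 over Rbbp7 by -0.25, and both overlapped with averaged probe sets (-0.050 and -0.17). Mtf2 over Phf19 also overlapped with no scaling (-0.074), and lay at 0.23 with the least variable probe set. Ezh2 over Ezh1 changed by 0.19 and overlapped between groups (exact permutation p = 0.7), but without control 1 the shift was 0.53 with no overlap and without control 3 it was -0.031. Smarcc1 over Smarcc2 changed by 0.28 with overlap (exact permutation p = 0.3), and with no overlap by 0.78 with averaged probe sets, by 0.82 with the least variable probe set and by 0.44 without RA 1. Arid1a over Arid1b changed by 0.46 with overlap (exact permutation p = 0.3), and by 0.72 with no overlap without control 1. Smarcd1 over Smarcd2 changed by 0.86 with overlap (exact permutation p = 0.2). Without control 1 that shift was 1.16 with no overlap, and with averaged probe sets 0.56 with overlap. Mbd3 over Mbd2 changed by 0.59 with overlap (exact permutation p = 0.2). Without RA 1 it was 0.88 with no overlap, and with averaged probe sets 0.036 with overlap.

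**Figure D4:**
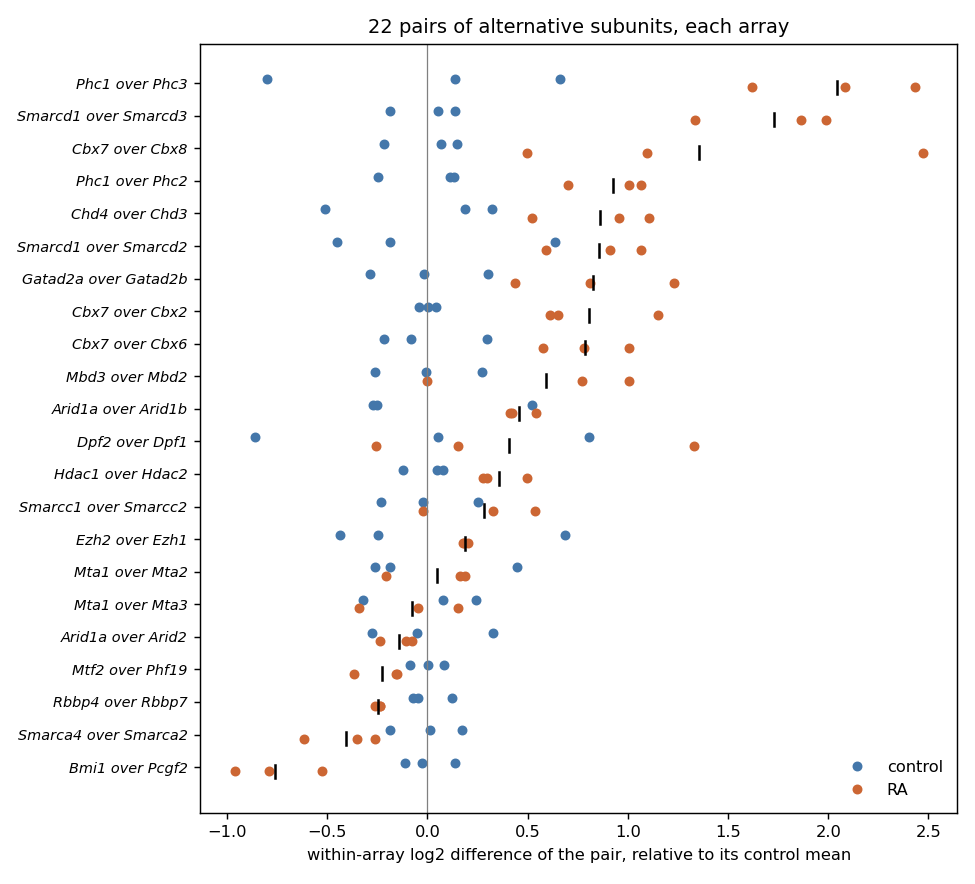
Within-array log2 difference of each of 22 subunit pairs, relative to its mean over control arrays (horizontal axis), for control arrays (blue) and RA arrays (orange); the black bar is the RA mean. Phc1 over Phc3 and Smarcd1 over Smarcd3 shift most, by 2.04 and 1.73, and the RA arrays of Cbx7 over Cbx8 are widely spread.

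Other genes of the same pathways were taken from lists made with earlier results of these data known. For comparison with the counts below, 14.3% of all genes tested were higher and 15.6% lower. Of 3 other PRC2 genes 1 rose and 0 fell: Epop, a PRC2 partner of stem cells that links it to elongin, was 2.73 times higher (1.45 ± 0.19, adjusted p = 0.000162), and Aebp2 and Phf1 did not pass. Of 15 other PRC1 genes measured 5 rose and 4 fell. Usp7, a deubiquitinase, and Bcor, a scaffold of non-canonical PRC1, were 1.59 and 1.68 times higher, while Yaf2, which stimulates the ligase, fell by 0.58 on the log2 scale and Dcaf7 was 1.62 times lower. Mga, which belongs to the same form as Pcgf6, was also called higher (0.55 ± 0.17, adjusted p = 0.0332), while E2f6, Max and L3mbtl2 of that form did not pass. Of 11 other SWI/SNF genes 0 rose and 1 fell, Bcl11a, at 1.58 times lower. Of 8 other NuRD genes 3 rose and 2 fell. The zinc-finger factors Sall1 and Sall4, which recruit NuRD, were 4.53 and 3.56 times higher, the methyl-DNA reader Mbd2, which takes the place of Mbd3, was 2.34 times lower, and Zfpm1, a NuRD-binding cofactor of blood and heart, 2.22 times lower. Sall4 is also one of the 12 epiblast markers.

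Among 7 genes for enzymes that oppose Polycomb and for their partners, 3 rose (42.9%) and 0 fell. Over all genes tested 14.3% were higher and 15.6% lower. Kdm6a, which removes the PRC2 mark, was 1.68 times higher, and Asxl1 and Asxl2, partners of the H2A deubiquitinase Bap1, were 1.57 and 1.54 times higher. Bap1 itself differed by 0.17 ± 0.08, and Kdm6b, the other demethylase, by -0.42 ± 0.16, and neither passed. The deubiquitinase genes Usp16 and Mysm1 did not pass either. Of 12 trithorax genes, for enzymes that write the activating methyl mark on histone H3 and for their partners, 2 rose and 0 fell. These were the partners Wdr5 and Paxip1, at 1.31 and 1.32 times higher, and none of the enzyme genes passed. The list's median was 0.25 where all genes had 0.01.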

How the data were processed

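Arrays were grouped by sample title. The deposited values are linear intensities per probe set that the authors made with the Affymetrix GCOS software at default settings, per the labels. Its version is not given in the sources used here. From these, 64 control probe sets were left out, 16 was added before log2, and arrays were quantile normalized with limma 3.58.1 in R 4.3.3, since 2% trimmed means ran from 108 to 191. The pseudocount understates changes of dim genes. Probe sets with a mean above the 40th percentile (5.74) were kept, 27022 in all, and each gene was read from its brightest kept probe set with 1 symbol. The annotation gives 34945 probe sets 1 symbol, 932 several and 9160 none; all 51 members matched RefSeq (GRCm38.p6) by gene identifier. Groups were compared with lmFit and eBayes (trend, two-sided, no block), adjusted over 13608 genes. The procedure was also run on simulated data with independent noise and few changed genes, which does not show how the calls hold on these arrays. Values on every array are given for members past the threshold with at least 1.5-fold change, for pairs that shifted by at least 1 without overlap, and for others that were singled out after their values were seen. From each other list up to 4 genes were named by smallest adjusted p, plus list members outside that rule where a complex is described. Members, lists and pairs were chosen with earlier results of these data known. The number of arrays limits precision.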

Additional observations from a re-analysis of the deposited data

How the results depend on the processing

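Of the 20 called members 8 were called under all 19 alternatives (Jarid2, Cbx7, Phc1, Smarcd3, Arid2, Actl6a, Chd3 and Hdac1), and 13 without any 1 array. Without the trend in the variance prior, 7 members were higher and 4 lower, and 9 other pathway genes were higher. With no scaling, 2 members, 2 other pathway genes and 651 genes in all were lower, 72.9% of calls were higher against 47.8%, and Smarca4 was at 0.026. With median centring 3 members were lower. Leaving out 1 array, or RA array 1 and control array 3 together, gave 10 to 14 members higher and 3 to 6 lower, 10 to 14 other pathway genes higher and 6 to 8 lower, 1487 to 1815 genes higher and 1733 to 1928 lower, and 3 to 5 pairs that shifted by at least 1 without overlap. The low counts of falling members were 4 without RA array 3 and 3 without both arrays, and 5 pairs were found without control array 1 or without RA array 1. There were 5 such pairs when a gene's probe sets were averaged. The cause of these changes was not tested. Of the 28 members not called, 5 passed under some alternative. The replicate numbers did not pair the arrays: deviations of arrays with the same number correlated at -0.09, -0.01 and -0.03. With the replicate number as a block, 12 members were higher and 7 lower, and 1775 and 1949 genes in all. Dpf1 had no value under the 60th percentile filter.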
